A study of Homo sapiens with 50 samples.

Results

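Complement is the blood-borne protein cascade that tags and lyses foreign or damaged cells, and most of its soluble proteins are made by hepatocytes. The 34 genes described here were chosen by name as components and regulators of that cascade, and they are 34 of the 79578 named genes and unnamed loci in the deposited expression table. They were measured by RNA sequencing in HepaRG cells, an established human hepatic line that differentiates into a mixture of hepatocyte-like and biliary-like cells, bought already differentiated. From day 8 to day 14 of culture every group, the control included, was kept in a medium with 2% serum and 1% DMSO. The control group received no pesticide, and the 9 other groups received mesotrione, isoxaflutole or quizalofop-p-ethyl at 0.1 uM, 10 uM or 1 mM, with 5 libraries in each of the 10 groups. Mesotrione and isoxaflutole are herbicides that act on a plant enzyme of tyrosine breakdown, and quizalofop-p-ethyl is a herbicide that acts on the plant enzyme that starts fatty acid synthesis. HepaRG is a single tumour-derived line, so the values describe transcripts of these cells and not complement in plasma. Whether the 5 libraries of a group are separate cultures is not given in the labels, and a p-value here measures only the spread among those libraries, which may be technical.

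The cascade starts on several routes. In the classical and lectin routes a recognition protein carries proteases (C1r and C1s, or the MASPs) that cleave C4 and C2, and in the alternative route factor B binds to C3b and is cut by factor D. All routes build a convertase that splits C3, and later C5, after which C5b, C6, C7, C8 and C9 form the membrane attack complex. Soluble regulators (factor I, C4b-binding protein, clusterin, vitronectin) and membrane proteins (CD46, CD55, CD59) restrain these steps on host cells. The factor H-related genes are listed here with the soluble regulators.

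The deposited values are FPKM, the authors' fragment numbers scaled to transcript length and sequencing depth, given for each transcript. A gene's level is the sum of the FPKM of all transcripts that carry its name, so levels of different genes can be compared per length. The 34 genes had 310 such transcripts. Values by library are listed in order of deposit, and the libraries of a group are numbered 1 to 5 in that order. A gene was tested where it reached 1 FPKM in at least 5 libraries, and 25 of the 34 genes did, against 24248 of all 79578 features. Differences are log2 fold changes of FPKM + 1 from limma with Benjamini-Hochberg adjustment over all 24248 features, called at an adjusted p under 0.05. The added 1 FPKM makes these fold changes smaller than ratios of FPKM for genes at a few FPKM or less. One library of quizalofop-p-ethyl 10 uM (sample number 89) was left out, so that group has n = 4. It had 6783 genes at 1 FPKM or more and 30.4% of its FPKM at ribosomal loci, where the other 49 libraries had 17016 to 20344 genes and 0.065% to 1.24%. The table holds no counts. The size of a single-fragment step in short single-exon transcripts gave estimated depths of 7160000 to 34280000 fragments for the 49 libraries.

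In control cells the group means of the complement genes ran from 0.01 to 1272 FPKM. C3, the central component, stood highest at 1272 ± 287 FPKM (SD, n = 5), next to vitronectin (VTN, an inhibitor of the terminal complex) at 1131 ± 127. The spread of these 2 genes overlapped, and so did that of the next pair, clusterin (CLU, another terminal inhibitor, 651 ± 50.1) and factor B (CFB, 643 ± 232). The C1 proteases C1S (281 ± 89.8) and C1R (208 ± 57.3) and the membrane inhibitor CD59 (202 ± 79.8) followed, also with overlapping libraries. Below them stood C4A (127 ± 118), C4B (92.7 ± 84.8), CFI (72.2 ± 15.6) and C2 (65.6 ± 6.09). CD46, C5, C6, C8G, C4BPB, C4BPA, C1RL, MASP1 and CFHR2 had means between 10.1 and 26.7 FPKM, CD55 8.09, C8B 4.87 and C8A 2.07. This order holds for named transcripts: with unnamed transcripts of the locus added (described further on) the control means of C4A and C4B were 212 and 213 FPKM, beside C1R at 209.8, C8A was at 11.1, CLU at 973, C5 at 40.4 and C4BPA at 25.3. CFHR3 and C9 had control means of 0.55 and 0.43 FPKM and were tested because at least 5 libraries reached 1 FPKM. The fifth control library was among these for both (1.16 and 1.67 FPKM). For C9 they were all of the first run of sample numbers, described further on.

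The remaining 9 genes did not pass the filter. They are the lectin-route recognition genes MBL2, FCN3 and COLEC11, the protease MASP2, the alternative-route genes CFD and CFP (factor D and properdin), C7, and the factor H-related genes CFHR4 and CFHR5. Their control means lay between 0.01 FPKM (COLEC11) and 0.50 FPKM (C7), so no test of them is given. Of these, MBL2 had control values of 0.464, 0.385, 0.348, 0.177 and 0.412 FPKM and quizalofop-p-ethyl 1 mM values of 0.0213, 0, 0.0160, 0.0388 and 0, which did not overlap. C7, a component of the attack complex, had control values of 0.172, 0.531, 0.591, 0.182 and 1.01 and was at or under 0.0416 FPKM in the 5 quizalofop-p-ethyl 1 mM libraries.

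The cells carried the transcripts of the labelled tissue. Albumin stood at 9419.7 ± 770.1 FPKM in the control, and 19 of 20 hepatocyte markers passed the filter. Of 10 biliary markers 7 passed, while EPCAM and CFTR stayed under 1 FPKM in every library. Of 12 leukocyte markers 8, among them PTPRC, CD163 and CSF1R, stayed under 1 FPKM in every library. The other 4 were measured in the control at 14.7 ± 10.3 (CD68), 3.27 ± 2.03 (LYZ), 3.07 ± 1.79 (CD14) and 1.18 ± 0.126 FPKM (MARCO), and quizalofop-p-ethyl at 1 mM lowered CD14 (log2 fold change -1.14, adjusted p = 0.000269) and LYZ (-1.88, adjusted p = 2.60e-07). C1QB and C1QC, macrophage-made chains of C1q, were listed at 0 throughout. C1QA, the other chain, stayed under 1 FPKM.

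The 250 bases before the start are shown for 3 genes whose lower transcript levels with quizalofop-p-ethyl are described further on, 2 of them of the membrane attack complex and 1 a soluble regulator. The sequences come from the RefSeq table for GRCh38.p14 and run 5′ to 3′ on the gene's strand. C6 (minus strand) is chr5:41261470-41261719, C8A (plus strand) is chr1:56854547-56854796 and C4BPA (plus strand) is chr1:207103983-207104232. Capitals mark matches to the motifs named after the sequences.
C6: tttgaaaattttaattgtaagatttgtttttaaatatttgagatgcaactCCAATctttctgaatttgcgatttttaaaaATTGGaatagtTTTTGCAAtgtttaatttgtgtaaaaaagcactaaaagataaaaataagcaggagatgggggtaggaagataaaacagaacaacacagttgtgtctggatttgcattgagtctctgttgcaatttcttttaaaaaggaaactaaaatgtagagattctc
C8A: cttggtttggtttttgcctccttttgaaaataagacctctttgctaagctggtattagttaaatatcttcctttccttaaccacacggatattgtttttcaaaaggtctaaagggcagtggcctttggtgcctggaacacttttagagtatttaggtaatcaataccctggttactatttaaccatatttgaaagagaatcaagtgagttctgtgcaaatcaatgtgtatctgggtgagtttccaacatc
C4BPA: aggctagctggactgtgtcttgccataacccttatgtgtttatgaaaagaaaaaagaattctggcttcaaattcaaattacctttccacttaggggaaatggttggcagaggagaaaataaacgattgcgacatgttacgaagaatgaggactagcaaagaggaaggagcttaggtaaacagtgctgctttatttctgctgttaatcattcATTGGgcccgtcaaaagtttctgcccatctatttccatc
The letters were searched on both strands for a STAT-type motif (TTCNNNGAA), a C/EBP-type motif (TTGCNNAA), an HNF4-type motif (CAAAGTCCA), an NF-kB-type motif, CCAAT and the cAMP element (TGACGTCA). The table matched 23 of the 34 genes, with 36 windows. C6 holds 2 CCAAT boxes, at -200 to -196 and at -170 to -166, and a C/EBP-type match at -159 to -152. C4BPA holds a CCAAT box at -39 to -35, and the C8A window holds none of these letters. Over the 36 windows of the complement genes 27.8% held the STAT-type motif, against 6.57% of all 35116 windows of the same length. For the C/EBP-type motif the shares were 25.0% and 9.05%, and for CCAAT 47.2% and 32%. No window of the complement genes held the HNF4-type motif (0.325% of all windows), the NF-kB-type motif (0.527%) or the cAMP element (1.65%). Some genes have several overlapping windows, CCAAT can overlap other motifs, and a match is a description of letters, not of a bound site.

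The summed FPKM of the complement genes was 4921 ± 850 in the control (SD, n = 5), 0.792% of a library's summed FPKM. It was 3956 ± 227 with mesotrione 1 mM (0.590%), 4068 ± 252 with isoxaflutole 1 mM (0.614%) and 936 ± 559 with quizalofop-p-ethyl 1 mM (0.137%). Every quizalofop-p-ethyl 1 mM library (358 to 1854) was below every control library (4286 to 6235), while the highest mesotrione (4307) and isoxaflutole (4483) libraries overlapped the lowest control. The group means at 0.1 uM and 10 uM lay between 4651 and 5052, and no test of the sum is given. At 1 mM the 3 comparisons share the same 5 control libraries, so each is given with its own values.

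**Figure D1:**
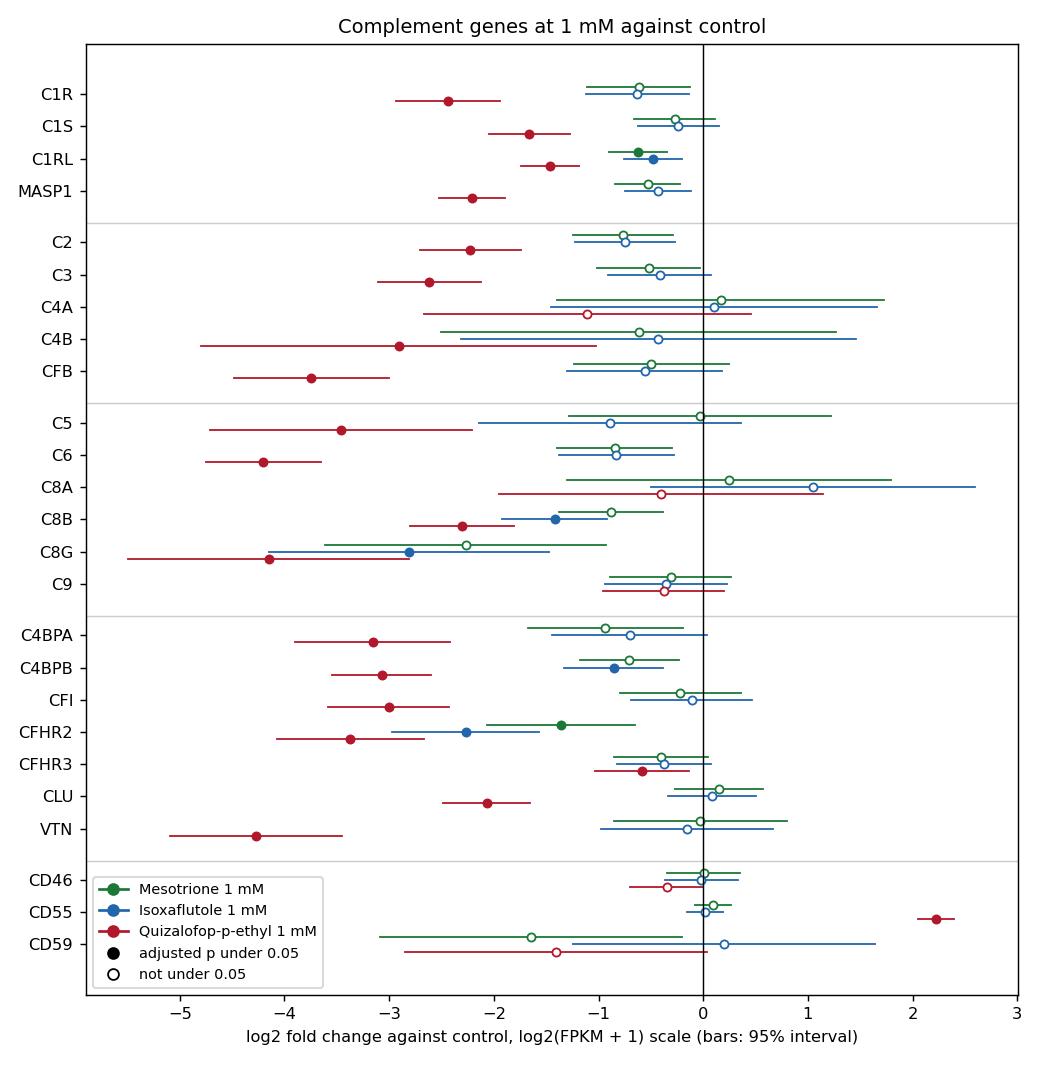
Log2 fold change of FPKM + 1 against control for the 25 tested complement genes (rows) with mesotrione, isoxaflutole and quizalofop-p-ethyl at 1 mM. Points are limma estimates, bars 95% intervals, and filled points have an adjusted p under 0.05: with quizalofop-p-ethyl 19 genes lie to the left and CD55 alone to the right.

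Quizalofop-p-ethyl at 1 mM lowered 19 of the 25 tested complement genes and raised 1, CD55. Over all 24248 features 19.7% were called lower and 13% higher. The median log2 fold change over the 25 genes was -2.31, against -0.08 over all features. The libraries of the 2 groups did not overlap for 20 genes on the lower side (14.8% of all features) and for 1 on the higher side (9.10%). The genes not called were C4A, C8A, C9, CD46 and CD59. Because these are bulk samples, fewer cells of a type and less RNA per cell cannot be told apart. Markers of the liver cell types moved with the same group. Of 19 tested hepatocyte markers 18 were lower, and their summed FPKM (unnamed transcripts included) was 332 to 6301 in the 5 treated libraries against 21218 to 24488 in the control. The biliary sum was 112 to 218 against 720 to 805 and the stellate or mesenchymal sum 105 to 414 against 1235 to 1334. The members of that last list did not move alike: 5 of 8 tested fell, among them COL3A1 and FN1, the highest by named transcripts (387 ± 187 to 120.55 ± 63.6 FPKM, log2 fold change -1.76, adjusted p = 0.0087), while PDGFRB rose (log2 fold change 1.18, adjusted p = 0.0297), and ACTA2 (0.42) and RGS5 (0.12) were not called. The part of these in the complement result was not tested.

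All 4 tested genes of the initiating proteases fell with quizalofop-p-ethyl 1 mM. C1R was at 186, 162, 175, 209.5 and 305 FPKM in the 5 control libraries and at 79.6, 31.8, 44.7, 27.5 and 20.5 in the treated ones. C1S, which C1r activates and which cleaves C4 and C2, was at 237, 227, 241, 261 and 440.3 against 141, 83.1, 97.4, 87.3 and 45.1. Neither gene's groups overlapped, and the first treated library was the highest of its group for both. The log2 fold change was -2.44 for C1R (SE 0.24, adjusted p = 3.92e-11) and -1.66 for C1S (SE 0.19, adjusted p = 1.77e-09). C1RL, a C1r-like protease gene beside them on chromosome 12, went from 13.2, 11.4, 10.02, 12.01 and 14.5 to 2.85, 4.23, 3.96, 3.03 and 5.09 FPKM (log2 fold change -1.47, SE 0.14, adjusted p = 6.48e-12). MASP1, a protease of the lectin route, went from 11.04, 13.5, 11.8, 12.5 and 12.04 to 3.40, 1.13, 3.52, 1.56 and 0.7099 (log2 fold change -2.21, SE 0.16, adjusted p = 1.24e-15). For both genes every treated library was below every control library. C1R and C1RL overlap on the same strand and share 9.20% and 11.1% of their 75-base windows with each other, so a part of their reads could be assigned to either.

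Of the 5 tested genes that build the C3 and C5 convertases 4 fell. C3 was at 1166, 1068, 1062, 1314 and 1752 FPKM in the control libraries and at 513, 179, 256, 202 and 71.7 with quizalofop-p-ethyl 1 mM, a ratio of means of 0.192 (log2 fold change -2.62, SE 0.24, adjusted p = 5.23e-12). CFB, which supplies the protease of the alternative convertase, was at 493, 524, 587, 555 and 1054 against 201, 37.8, 58.8, 36.98 and 10.6, a ratio of means of 0.107 (log2 fold change -3.74, SE 0.37, adjusted p = 2.21e-11). The groups were apart for both genes, and the treated libraries themselves differed widely, from 10.6 to 201 FPKM for CFB. C2, the classical counterpart of factor B and its neighbour on chromosome 6, was at 66.6, 57.98, 62.3, 74.4 and 66.5 against 29.4, 13.4, 17.2, 11.7 and 4.72 (log2 fold change -2.22, SE 0.24, adjusted p = 2.19e-10). With its single highest transcript in place of the sum, C2 had a log2 fold change of -1.01 and an adjusted p of 0.39. C2 and CFB have 28.4% and 39.7% of their 75-base windows in common with other annotated genes.

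C4 is encoded by the near-identical neighbours C4A (31982024 to 32002681) and C4B (32014762 to 32035418) on chromosome 6 of GRCh38, and 92.2% of the 75-base windows of C4A also occur in C4B. How the authors' assembly divided their reads is uncertain. C4A stood at 28.8, 17.7, 97.6, 199 and 294 FPKM in the control libraries and C4B at 63.5, 156, 19.8, 206 and 17.5. With quizalofop-p-ethyl 1 mM they stood at 80.1, 53.9, 64.98, 12.5 and 16.6 and 12.1, 13.2, 5.22, 6.47 and 2.97. C4B passed the test (log2 fold change -2.91, SE 0.93, adjusted p = 0.0132) and C4A did not (log2 fold change -1.11, SE 0.77, adjusted p = 0.298). The C4B call ended without the fourth control library (adjusted p = 0.0516). With the unnamed transcripts of the locus added, as described further on, C4A was at 166, 129, 175, 284 and 305 against 123, 53.97, 65.02, 33.6 and 24.1 and C4B at 215, 206, 139, 325 and 178 against 47.7, 36.5, 34.9, 28.2 and 12.8. Both passed on those values (C4A log2 fold change -1.95, SE 0.33, adjusted p = 2.66e-06, and C4B log2 fold change -2.75, SE 0.31, adjusted p = 3.64e-10).

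**Figure D2:**
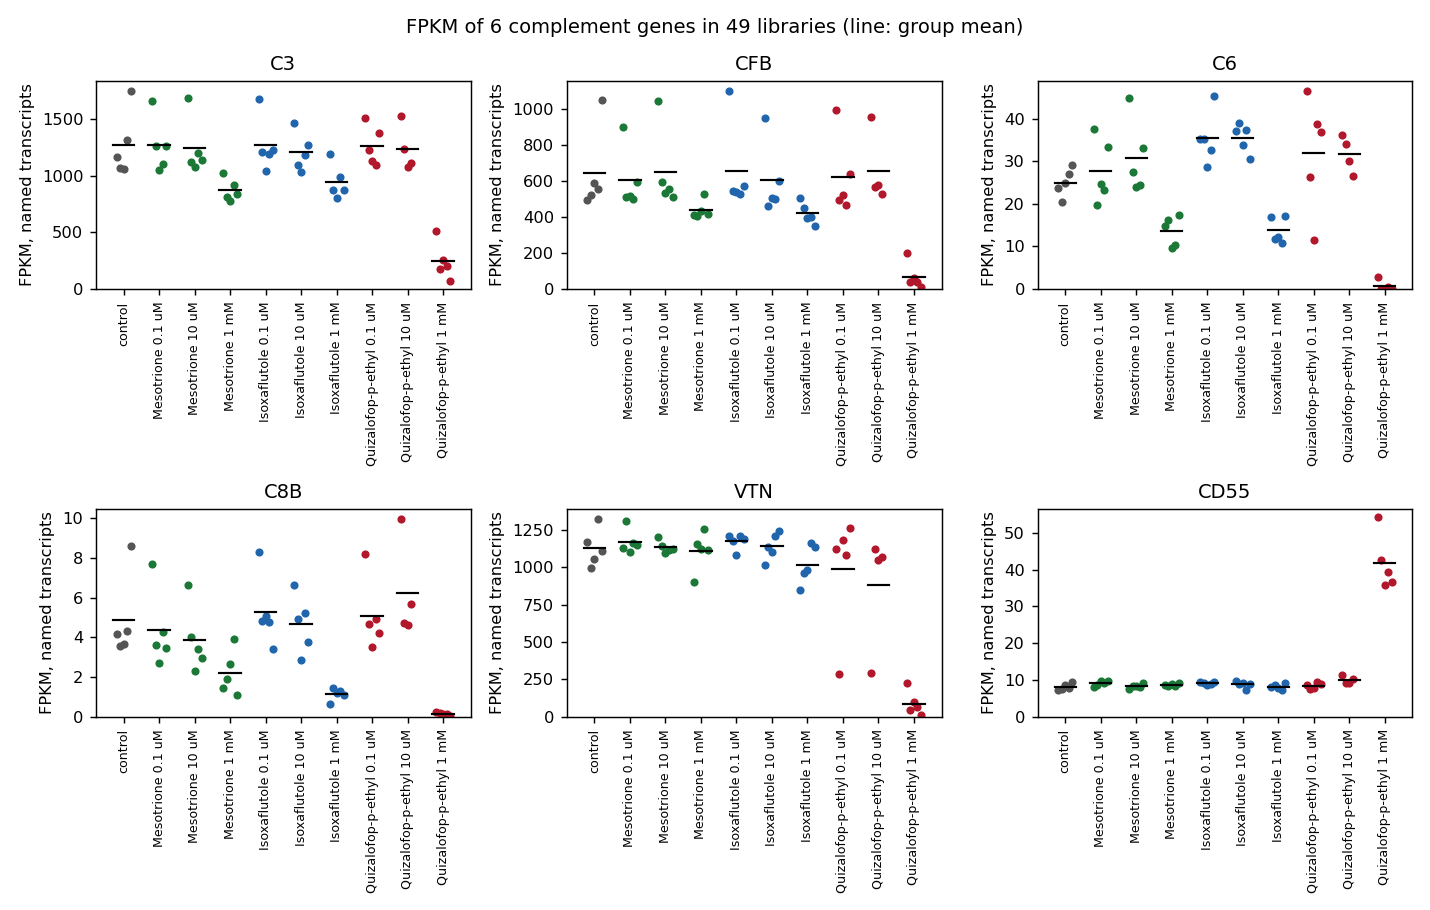
FPKM of C3, CFB, C6, C8B, VTN and CD55 in the 49 libraries by group (x axis), 1 panel per gene with its own y axis; points are libraries and lines group means. The quizalofop-p-ethyl 1 mM libraries are the lowest group for C3, CFB, C6, C8B and VTN and the highest for CD55.

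Of the 6 tested genes of the membrane attack complex 4 fell. C6 was at 23.6, 20.5, 24.9, 26.9 and 29.02 FPKM in the control and at 2.78, 0, 0, 0.443 and 0 with quizalofop-p-ethyl 1 mM, with 3 of the 5 treated libraries listed at 0 (log2 fold change -4.20, SE 0.27, adjusted p = 9.57e-17). C5, whose cleavage starts the complex, was at 3.99, 30.9, 39.03, 5.84 and 46.1 against 1.78, 0, 0.640, 0.998 and 0.389 (log2 fold change -3.46, SE 0.62, adjusted p = 1.49e-05). C8B, the beta chain of C8, was at 4.19, 3.57, 3.65, 4.34 and 8.59 against 0.258, 0.162, 0.144, 0.116 and 0.0259 (log2 fold change -2.31, SE 0.25, adjusted p = 2.38e-10). C8G, the gamma chain, was at 16.02, 16.3, 17.3, 18.6 and 23.9 against 0.333, 0, 0.0979, 0.0137 and 0 (log2 fold change -4.15, SE 0.66, adjusted p = 2.02e-06). In all 4 genes the groups did not overlap. C8A, the alpha chain, was listed at 0 in 4 of 5 control libraries and at 10.3 FPKM in the other one, and C9, which forms the pore, was above 1 FPKM in a single control library. Neither was called on the named values (C8A adjusted p = 0.741, C9 adjusted p = 0.346).

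Each of the 7 tested soluble regulators fell. On the log2(FPKM + 1) scale VTN had the largest fold change of the 25 tested genes, although by the ratio of treated to control means C8G (0.00483), C6 (0.0258), C8B (0.0290) and C5 (0.0303) were lower than VTN (0.0775) and CFHR2 was listed at 0. VTN went from 1170.0, 996, 1055, 1327 and 1107 to 223, 41.97, 97.4, 65.98 and 9.59 FPKM (log2 fold change -4.27, SE 0.41, adjusted p = 1.13e-11). The treated values spanned more than 20-fold among themselves and lay far below the control. CLU was at 617, 619, 612, 726 and 679 against 319, 232, 156, 107 and 69.8 (log2 fold change -2.07, SE 0.21, adjusted p = 3.69e-11), and CFI, the protease that inactivates C3b and C4b, at 60.6, 86.5, 89.9, 69.8 and 54.4 against 25.3, 5.11, 9.88, 8.63 and 2.42 (log2 fold change -3.01, SE 0.29, adjusted p = 9.75e-12). No treated library reached its lowest control library for either gene. The chains of C4b-binding protein, a cofactor of factor I, fell together: C4BPA was at 12.6, 5.93, 9.03, 13.3 and 25.5 against 2.63, 0, 0.275, 0.376 and 0 (log2 fold change -3.16, SE 0.37, adjusted p = 1.86e-09). C4BPB was at 11.5, 12.5, 13.8, 12.1 and 19.98 against 1.68, 0, 1.02, 1.76 and 0.0939 (log2 fold change -3.07, SE 0.23, adjusted p = 1.46e-14). CFHR2, a factor H-related gene, was at 6.25, 7.66, 9.68, 7.82 and 19.1 FPKM in the control and listed at 0 in all 5 treated libraries, so no ratio is given (adjusted p = 9.24e-11). CFHR3 was at 0.298, 0.456, 0.544, 0.267 and 1.16 against 0.0386, 0, 0.00746, 0 and 0, all but 1 of them under 1 FPKM. Its adjusted p was 0.0382, and with 1 library left out at a time it passed only without the first or the fourth control library (adjusted p 0.0317 to 0.138). CFHR2 shares 10.0% and CFHR3 8.16% of their 75-base windows with other annotated genes.

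Among the 3 membrane regulators 1 rose and none was called lower. CD55 (decay-accelerating factor), which speeds the decay of convertases on the cell surface, was at 7.23, 7.42, 8.67, 7.76 and 9.37 FPKM in the control libraries and at 54.3, 42.6, 35.98, 39.4 and 36.6 with quizalofop-p-ethyl 1 mM. Every treated library was above every control library, the group means were 8.09 ± 0.905 and 41.8 ± 7.46 FPKM, and the ratio of means was 5.16 (log2 fold change 2.22, SE 0.085, adjusted p = 2.80e-24). CD46, a cofactor of factor I, was at 19.5, 28.8, 30.1, 25.97 and 29.1 against 26.5, 22.9, 22.4, 20.5 and 12.96 (log2 fold change -0.35, SE 0.17, adjusted p = 0.124). CD59, which blocks C9, was at 66.5, 224, 278, 221 and 223 against 132, 85.7, 64.5, 43.2 and 47.6 (log2 fold change -1.40, SE 0.71, adjusted p = 0.135), with overlapping groups for both. With unnamed transcripts added, CD59 was at 162, 254, 281, 246 and 254 against 147, 123, 118, 105 and 70.2 and passed as lower (log2 fold change -1.10, SE 0.26, adjusted p = 0.000513). CD46 also passed on those values (log2 fold change -0.42, SE 0.15, adjusted p = 0.0184).

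CD55 lies on chromosome 1 near complement genes that fell. C4BPB (207088842 to 207099993) and C4BPA (207104262 to 207144972) lie before CD55 (207321508 to 207386804) on the plus strand of GRCh38, and CD46 (207752057 to 207795513) lies after it. With quizalofop-p-ethyl 1 mM the log2 fold changes in this order were -3.07, -3.16, 2.22 and -0.35, the last not called.

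The rise of CD55 was carried by some of its transcripts more than others. ENST00000314754, with 11 exons and 2220 bases, had a mean of 0.996 ± 1.18 FPKM in the control and 19.4 ± 6.60 with quizalofop-p-ethyl 1 mM (SD, n = 5). ENST00000367067 (9 exons) had 0.331 ± 0.457 and 7.40 ± 4.34, and ENST00000367063 (10 exons) had 1.81 ± 1.07 and 6.80 ± 1.26. ENST00000367064 (10 exons, 2760 bases), the transcript with the highest mean in the control, had 4.37 ± 0.984 and 6.28 ± 1.63. Taken alone, that transcript gave a log2 fold change of 0.43 with an adjusted p of 0.203, so the call rests on the sum over transcripts. No 75-base window of CD55 occurred in another annotated gene. The transcripts share most exons, and their separate levels are estimates of the authors' assembly.

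**Figure D3:**
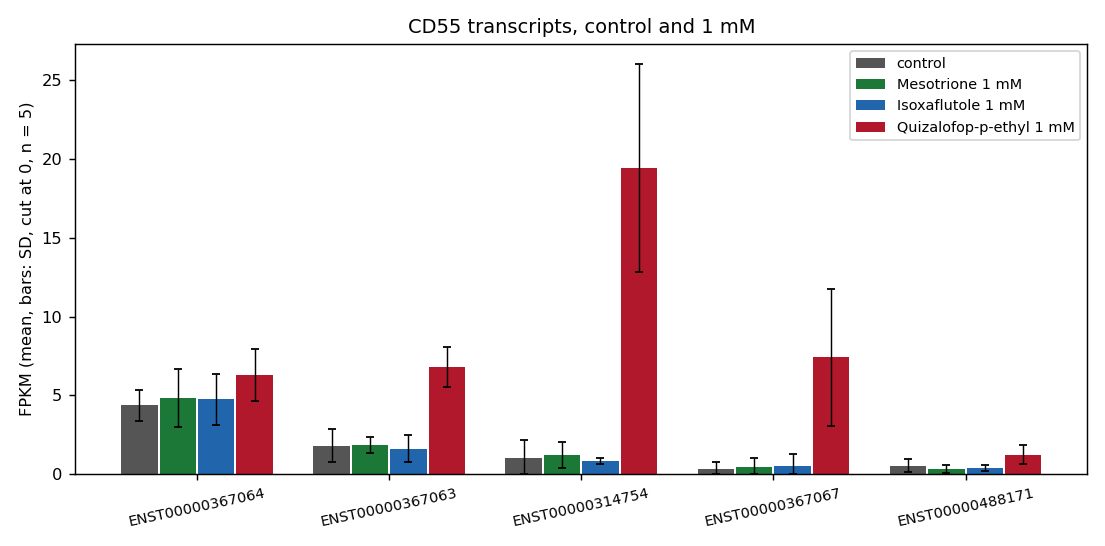
Mean FPKM (y axis) of 5 CD55 transcripts in the control and the 3 groups at 1 mM; bars are means and error bars SD, n = 5. The quizalofop-p-ethyl bars stand above the others mostly in ENST00000314754, ENST00000367067 and ENST00000367063.

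Mesotrione at 1 mM lowered 2 of the 25 tested genes, C1RL and CFHR2, and raised none, against 0.701% of all features lower and 0.177% higher. The median log2 fold change over the 25 genes was -0.52, against -0.01 over all features. For 11 genes every treated library was below every control library (2.08% of all features) and for none was it above (1.06%). C1RL was at 9.83, 6.02, 6.09, 8.76 and 7.63 FPKM, against 10.02 to 14.5 in the control (log2 fold change -0.62, SE 0.14, adjusted p = 0.0109). CFHR2 was at 2.45, 3.51, 3.95, 1.71 and 4.15, against 6.25 to 19.1 (log2 fold change -1.36, SE 0.35, adjusted p = 0.0429). Both calls depended on single libraries. The adjusted p of C1RL ran from 0.00451 to 0.0587 with 1 library left out at a time, and the call ended without mesotrione library 2 or 3 or control library 5. For CFHR2 it ran from 0.0375 to 0.179, and the call stayed only without the first control library.

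The other 9 genes whose mesotrione and control libraries did not overlap, C1R, MASP1, C2, C3, C6, C8G, C9, C4BPB and CFHR3, missed the threshold in this fit. C8G was at 0.391, 8.10, 9.71, 0.605 and 3.67 FPKM (log2 fold change -2.27, SE 0.66, adjusted p = 0.0991), C6 at 14.8, 16.2, 9.71, 10.4 and 17.5 (log2 fold change -0.85, SE 0.27, adjusted p = 0.162) and C2 at 40.5, 39.4, 26.2, 49.4 and 38.8 (log2 fold change -0.76, SE 0.24, adjusted p = 0.14). CD59 was at 54.8, 31.4, 232, 78.4 and 19.7 (log2 fold change -1.65, SE 0.71, adjusted p = 0.428), which overlapped the control. C3 had a mean of 874 ± 99.7 FPKM and a 95% interval of -1.01 to -0.031 for its log2 fold change. VTN, CLU, CD46 and CD55 had log2 fold changes of -0.026, 0.15, 0.0036 and 0.091, with intervals of -0.85 to 0.80, -0.26 to 0.57, -0.35 to 0.35 and -0.081 to 0.26. The interval of CD55 leaves out a rise of the size seen with quizalofop-p-ethyl. With the runs of sample numbers (described further on) as a block in the fit, C1R, C2, C6, C8G and C4BPB were called lower (limma adjusted p 0.0136 to 0.0485). So was C8B (0.00954), while MASP1, C3, C9 and CFHR3 were not. The block fit called 1.09% of all features lower.

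Isoxaflutole at 1 mM lowered 5 of the 25 genes and raised none, against 1.26% of all features lower and 1.15% higher. The median was -0.43, against -0.01 over all features, and 8 genes had every treated library below every control library (2.40% of all features). CFHR2 was at 0, 2.20, 2.27, 3.35 and 0 FPKM, with 2 libraries listed at 0 (log2 fold change -2.27, SE 0.35, adjusted p = 3.46e-05). C8B was at 0.638, 1.44, 1.19, 1.27 and 1.078, against 3.57 to 8.59 in the control (log2 fold change -1.42, SE 0.25, adjusted p = 0.000231). These groups did not overlap, and both calls were kept with each library left out in turn. C8G was at 3.12, 4.11, 0.0555, 5.01 and 0.159 (log2 fold change -2.81, SE 0.66, adjusted p = 0.0107), a call that ended without the third isoxaflutole library (adjusted p = 0.0513). C4BPB was at 7.54, 5.72, 7.69, 7.96 and 6.88 (log2 fold change -0.86, SE 0.23, adjusted p = 0.0352) and C1RL at 8.36, 9.14, 8.32, 10.6 and 6.29 (log2 fold change -0.48, SE 0.14, adjusted p = 0.0496). With 1 library left out, the adjusted p ran from 0.0394 to 0.127 for C4BPB, whose call ended without isoxaflutole library 1, 2, 3 or 5 or control library 2, 3 or 5. For C1RL it ran from 0.0270 to 0.201, and the call stayed only without the third control or the fourth isoxaflutole library.

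C2, C6, MASP1 and C9 also lay below every control library with isoxaflutole 1 mM without passing the threshold. C2 was at 47.9, 38.1, 26.7, 43.7 and 39.5 FPKM (log2 fold change -0.75, SE 0.24, adjusted p = 0.0887), C6 at 17.01, 11.7, 12.2, 10.8 and 17.1 (log2 fold change -0.83, SE 0.27, adjusted p = 0.105) and MASP1 at 8.30, 7.81, 8.88, 10.1 and 8.82 (log2 fold change -0.43, SE 0.16, adjusted p = 0.163). C3 was at 1193, 875, 802, 985 and 874 and CFB at 505, 452, 393, 402 and 352, with log2 fold changes of -0.41 and -0.56 and 95% intervals of -0.91 to 0.076 and -1.30 to 0.18. C8A, at 2.52, 0, 3.81, 4.64 and 3.54 FPKM on the named values, and C5, at 3.37, 12.8, 19.4, 20.04 and 2.57, had wide intervals of -0.50 to 2.60 and -2.15 to 0.36. CD55 was at 8.10, 8.64, 7.79, 7.36 and 9.06 FPKM, with an interval of -0.15 to 0.19 around 0.019. With the runs of sample numbers as a block, C1R, C2 and C6 were called lower (limma adjusted p = 0.00638, 0.0228 and 0.0242). MASP1, C9 and C1RL (0.0519) were not. That fit called 1.73% of all features lower.

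Some of the wide spread between libraries of 1 group came from how transcripts were named. The table holds 40117 transcripts that the authors' assembly left without a gene name among 239290, and for several complement genes a library had its FPKM on a named transcript in one case and on an unnamed one of the same locus in another. Adding 24532 unnamed transcripts to the named gene whose span they share most of, a choice made after the named values had been seen, moved the control values of C5 from 3.99, 30.9, 39.03, 5.84 and 46.1 to 36.7, 37.2, 41.4, 40.03 and 46.6 FPKM. The control values of C8A moved from 0, 0, 0, 10.3 and 0 to 9.32, 9.60, 10.6, 10.3 and 15.6. The 0 values of C8A in the control were thus not absence of transcript at the locus. For VTN, where 2 lower-dose libraries had 283 and 289 FPKM by name, the lowest value of the control and the lower doses became 1018. Genes with no unnamed transcript in their span, such as C3, CFB, C8B and CD55, kept their values.

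**Figure D4:**
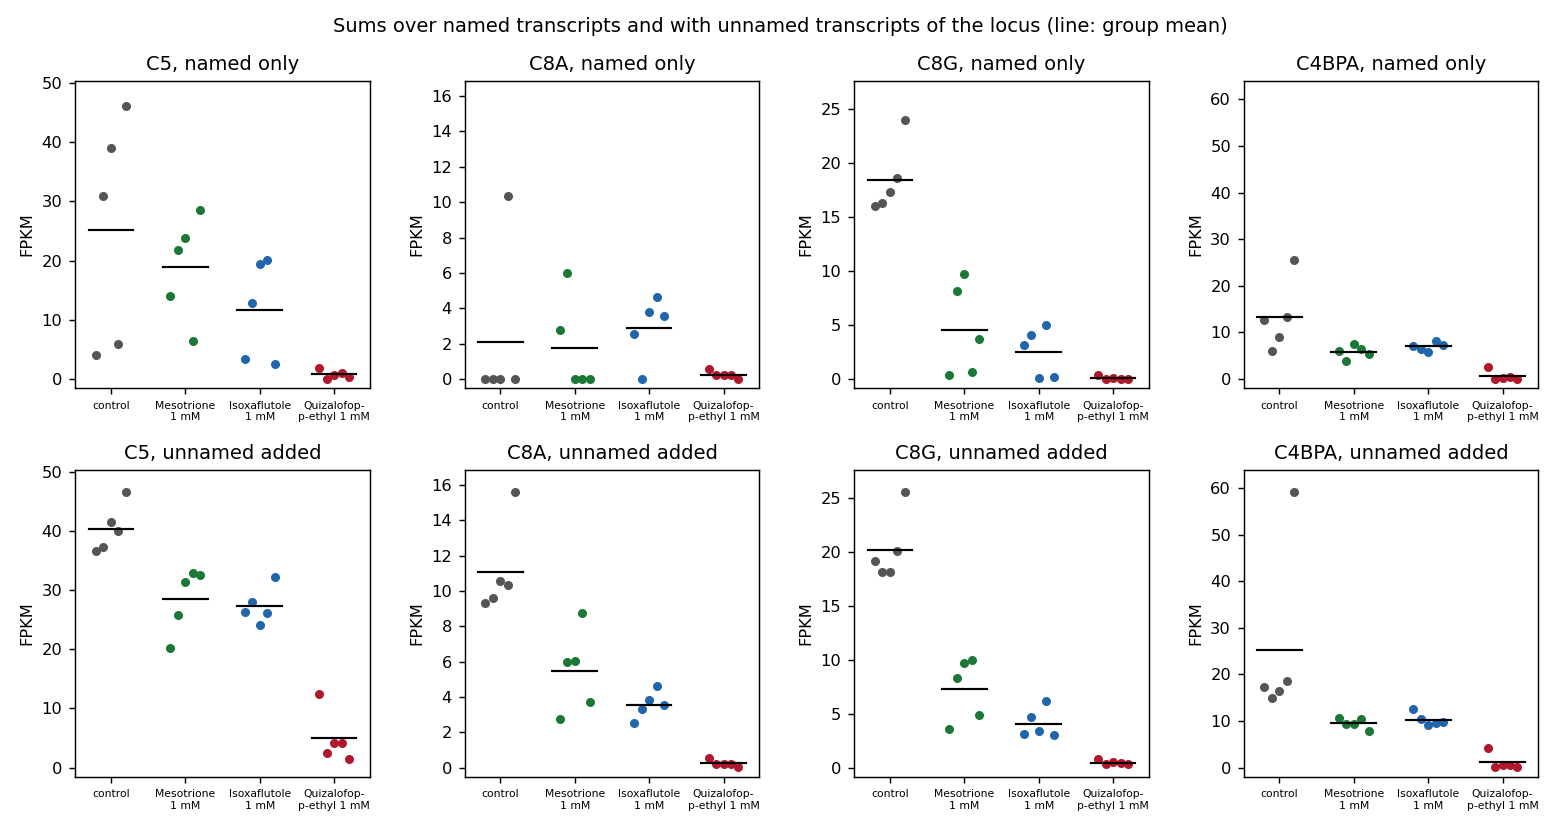
FPKM (y axis) of C5, C8A, C8G and C4BPA in the control and the 3 groups at 1 mM, for named transcripts only and with unnamed transcripts of the locus added; points are libraries. With the unnamed transcripts added, the control libraries of C5 draw together and those of C8A stand at 9.32 to 15.6 FPKM. Those of C4BPA do not draw together. In the control and lower-dose groups C4BPA was at 42.8 to 61.0 FPKM in the first run of sample numbers and at 12.1 to 22.5 in the others.

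On these values 26 complement genes passed the filter, CFHR4 now among them, and 18660 features were tested. Quizalofop-p-ethyl 1 mM was then called lower for 24 of 26 genes (27.4% of all features) and higher for CD55 (19.0%), with C9 not called. Mesotrione 1 mM was called lower for 6 (1.63%) and isoxaflutole 1 mM for 9 (2.47%), and neither was called higher for any (0.423% and 2.46%).

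The 3 chains of C8 were lower with each of the 3 compounds at 1 mM on these values. C8A was at 9.32, 9.60, 10.6, 10.3 and 15.6 FPKM in the control, 2.76, 5.98, 6.04, 8.75 and 3.74 with mesotrione, 2.52, 3.30, 3.81, 4.64 and 3.54 with isoxaflutole and 0.541, 0.199, 0.210, 0.2201 and 0.0256 with quizalofop-p-ethyl. No treated library of any compound reached the control. The log2 fold changes were -0.96 (SE 0.17, adjusted p = 0.000271), -1.40 (SE 0.17, adjusted p = 8.10e-08) and -3.27 (SE 0.17, adjusted p = 5.13e-21). C8G was at 19.1, 18.1, 18.1, 20.1 and 25.5 in the control, 3.59, 8.29, 9.71, 9.95 and 4.92 with mesotrione, 3.12, 4.69, 3.41, 6.19 and 3.00 with isoxaflutole and 0.764, 0.336, 0.515, 0.398 and 0.328 with quizalofop-p-ethyl. Its log2 fold changes were -1.42 (adjusted p = 5.62e-06), -2.09 (adjusted p = 2.13e-10) and -3.85 (adjusted p = 6.80e-21), again with no overlap. C8B passed with mesotrione (log2 fold change -0.88, SE 0.24, adjusted p = 0.0384) and with the other compounds (isoxaflutole adjusted p = 7.34e-05, quizalofop-p-ethyl adjusted p = 4.29e-11). C8A (56854806 to 56918221) and C8B (56929210 to 56966140) are neighbours on chromosome 1 of GRCh38, and C8G lies on chromosome 9 (136945246 to 136946974).

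CFHR4 was called lower with all 3 compounds only after unnamed transcripts were added. It was at 1.14, 1.98, 1.97, 1.37 and 4.05 FPKM in the control, 0.430, 0.552, 0.586, 0.342 and 0.202 with mesotrione (log2 fold change -1.06, SE 0.24, adjusted p = 0.00612), 0.268, 0.293, 0.424, 0.351 and 0.320 with isoxaflutole (log2 fold change -1.15, SE 0.24, adjusted p = 0.00107) and 0, 0.0308, 0, 0 and 0 with quizalofop-p-ethyl (log2 fold change -1.56, SE 0.24, adjusted p = 3.50e-07). It shares 12.04% of its 75-base windows with CFHR3. Isoxaflutole was called lower on these values also for C2 (log2 fold change -0.77, SE 0.24, adjusted p = 0.046) and C6 (log2 fold change -0.90, SE 0.26, adjusted p = 0.0283). C5 was at 40.4 ± 3.98 FPKM in the control, 28.6 ± 5.47 with mesotrione and 27.3 ± 3.08 with isoxaflutole, and its adjusted p was 0.348 and 0.173.

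Compared directly at 1 mM, isoxaflutole and mesotrione differed in none of the 25 genes by limma's adjusted p, with 0.231% of all features higher and 0.0247% lower with isoxaflutole. At an unadjusted p under 0.05 there were 3 of 25, against 6.71% of all features. The lowest was CFHR2 (-0.91, 95% interval -1.62 to -0.21, adjusted p = 0.519), then CD59 (1.85, interval 0.41 to 3.29) and C8B (-0.54, interval -1.03 to -0.038). With unnamed transcripts added the adjusted p of C8G was 0.162 (log2 fold change -0.66). C3 differed by 0.11 (interval -0.38 to 0.60) and CD55 by -0.072 (interval -0.24 to 0.10).

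Quizalofop-p-ethyl differed from both other compounds at 1 mM. Against isoxaflutole 17 of 25 genes were lower and CD55 was higher, where 18% of all features were lower and 11.6% higher. Against mesotrione the counts were also 17 and 1, where 17.6% and 12.6% of all features were called. The median log2 fold changes were -1.60 and -1.82, against -0.05 and -0.06 over all features. The libraries did not overlap on the lower side for 14 genes against isoxaflutole (13.3% of all features) and for 16 against mesotrione (13%), and on the higher side for CD55 alone (7.53% and 8.31%). CFB differed by -3.18 from isoxaflutole (adjusted p = 1.80e-09) and by -3.25 from mesotrione (adjusted p = 1.08e-09). VTN differed by -4.12 and -4.25 (adjusted p = 3.76e-11 and 1.58e-11), and C6 by -3.37 and -3.36 (adjusted p = 1.12e-13 and 1.29e-13). CD55 was higher by 2.20 and 2.13 (adjusted p = 5.97e-24 and 1.49e-23), and its single transcript ENST00000367064 alone gave 0.37 and 0.36 with adjusted p of 0.305 and 0.319. Calls that ended with 1 library left out were C4B (adjusted p 0.0158 to 0.129, ended without library 3, 4 or 5 of either group) and CFHR2 (0.0707 without the fourth isoxaflutole library) against isoxaflutole, and C8G (0.0102 to 0.0993, ended without mesotrione library 2, 3 or 5) against mesotrione.

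At 0.1 uM and 10 uM none of the 25 genes was called by limma in the 6 comparisons with control or the 6 between compounds. In the comparisons with control 0% of all features were called in 5 of 6, and 0.00412% in each direction with quizalofop-p-ethyl 10 uM. Between compounds at these doses at most 0.00825% of features were called in 1 direction. At an unadjusted p under 0.05 the counts against control were 0 and 1 for mesotrione 0.1 uM and 10 uM, 1 and 0 for isoxaflutole and 0 and 2 for quizalofop-p-ethyl, where between 3.06% and 5.01% of all features reached it. Fold changes ranged from -1.69 to 1.47, and the medians over the 25 genes from -0.04 to 0.12. CD55 had the lowest unadjusted p, with quizalofop-p-ethyl 10 uM at 11.4, 9.26, 9.27 and 10.4 FPKM (n = 4) against 7.23, 7.42, 8.67, 7.76 and 9.37 in the control (log2 fold change 0.29, SE 0.09, adjusted p = 0.872). The 4 libraries overlapped the control. C3 had group means between 1211 and 1272 FPKM over the control and the 6 lower-dose groups.

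Libraries with the lowest sample numbers stood apart in complement genes at the lower doses. The numbers in the sample titles fall into 5 runs of 10 consecutive numbers (9 to 18, 27 to 36, 45 to 54, 63 to 72 and 81 to 90), each with 1 library of every group, and the labels do not say what the runs are. The first run holds the fifth control library and the first library of each other group. In the control and the 6 lower-dose groups together, the 7 libraries of the first run were all above the 27 others for 7 of the 25 genes (C1R, C1S, C3, CFB, C8B, C9 and C4BPB), against 46 of 24248 features. CFB was at 900 to 1102 FPKM in the first run (median 998) and at 459 to 639 in the others (median 529). C9 was at 1.05 to 2.09 (median 1.81) against 0.0514 to 0.523 (median 0.146), so only the first run held values of 1 FPKM or more among these 34 libraries. No library at 1 mM reached 1 FPKM of C9 either. C9 thus passed the filter only through the first run, and its place in the count is no separate support for a difference between runs. C4BPA with unnamed transcripts was at 42.8 to 61.0 against 12.1 to 22.5. CLU did not separate the runs, and none of the 25 genes was lower in all 7.

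**Figure D5:**
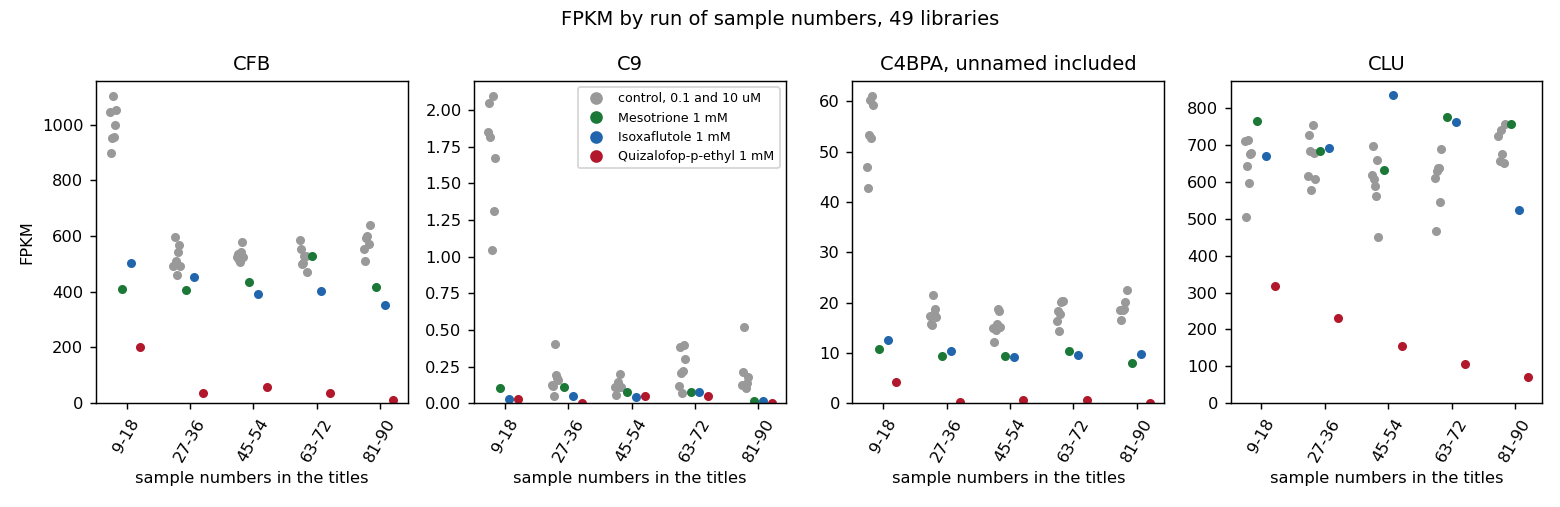
FPKM (y axis) of CFB, C9, C4BPA (unnamed transcripts included) and CLU by run of sample numbers (x axis) in the 49 libraries. In the first run the control and lower-dose libraries stand above those of the other 4 runs for CFB, C9 and C4BPA, and not for CLU. C9 passed the filter only through the first run.

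Differences from control were therefore also taken within each run. For CFB with mesotrione 1 mM the log2 difference was -1.36 in the first run and -0.16 to -0.41 in the others. With isoxaflutole it was -1.06 and -0.13 to -0.65, and with quizalofop-p-ethyl -2.38 and -3.13 to -5.58. C3 was lower in 5 of 5 runs with each compound (-0.21 to -0.77, -0.11 to -0.59 and -1.77 to -4.18). C8A and C8G with unnamed transcripts were lower in 5 of 5 runs with each compound, with differences between -0.24 and -2.14 for C8A with mesotrione and between -1.03 and -2.24 with isoxaflutole. For C8G these ranges were -0.80 to -2.53 and -1.41 to -2.69.

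Without the first run the calls with mesotrione 1 mM fell from 2 genes to 1, with C1RL kept at -0.65 (adjusted p = 0.0219) and CFHR2 at -1.06 (adjusted p = 0.151). With isoxaflutole CFHR2 (-1.76, adjusted p = 0.00116), C8B (-1.14, adjusted p = 0.000178) and C8G (-2.86, adjusted p = 0.0467) stayed past the threshold. C1RL (-0.42, adjusted p = 0.176) and C4BPB (-0.75, adjusted p = 0.069) did not, while C1R (-0.60, adjusted p = 0.0256) and C2 (-0.82, adjusted p = 0.038) then passed. With quizalofop-p-ethyl CFHR3 was no longer called (-0.47, adjusted p = 0.109) and CD55 was at 2.18.

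Of 25 further genes of the system (C1q chains, receptors, ficolins, carboxypeptidase N, pentraxins and others) 10 passed the filter. CPN1, the catalytic chain of carboxypeptidase N, which inactivates the anaphylatoxins, fell with all 3 compounds at 1 mM. It went from 2.25 ± 0.244 to 0.825 ± 0.393 FPKM with mesotrione (a log2 fold change of -0.86 with SE 0.12 and adjusted p = 8.18e-06), to 0.416 ± 0.228 with isoxaflutole (a log2 fold change of -1.21 with SE 0.12 and adjusted p = 1.02e-09) and to 0.00446 ± 0.00998 with quizalofop-p-ethyl (a log2 fold change of -1.69 with SE 0.12 and adjusted p = 8.83e-16). It was the single gene of the 10 called with mesotrione or isoxaflutole, where 0.701% and 1.26% of all features were lower. With quizalofop-p-ethyl 6 of the 10 fell and 2 rose, against 19.7% and 13% of all features, so the share that rose is near that of all features. The pentraxin APCS (serum amyloid P) went from 86.8 ± 57.9 to 4.23 ± 5.25 FPKM (a log2 fold change of -4.40 with SE 0.44 and adjusted p = 3.69e-11), KLKB1 had a log2 fold change of -2.63 and CPN2 of -1.45. PTX3, a long pentraxin, rose from 0.889 ± 0.166 to 6.66 ± 4.12 FPKM (a log2 fold change of 1.89 with SE 0.19 and adjusted p = 8.27e-11), and C1QBP rose by 0.22.

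Several complement genes are acute phase genes, which the liver makes in inflammation, and a list of other acute phase genes was examined beside them. Of 16 tested acute phase genes 16 fell with quizalofop-p-ethyl (median log2 fold change -3.27), 5 with isoxaflutole and 2 with mesotrione, and none rose. Of all features 19.7%, 1.26% and 0.701% were lower and 13%, 1.15% and 0.177% higher. The median over all features with quizalofop-p-ethyl was -0.08. HP (haptoglobin) went from 1533 ± 1258 to 40.2 ± 53.6 FPKM with quizalofop-p-ethyl (a log2 fold change of -5.74 with SE 0.52 and adjusted p = 3.20e-12) and FGB, a fibrinogen chain, from 1822 ± 382 to 103 ± 116 (a log2 fold change of -4.96 with SE 0.42 and adjusted p = 5.04e-13). CRP went from 28.4 ± 30.3 to 2.49 ± 0.597 with mesotrione (a log2 fold change of -2.67 with SE 0.61 and adjusted p = 0.0161) and to 2.25 ± 0.487 with isoxaflutole (a log2 fold change of -2.77 with SE 0.61 and adjusted p = 0.00559), from control libraries whose SD exceeded their mean. CP (ceruloplasmin) fell with both, with log2 fold changes of -1.43 and -1.42 (adjusted p = 0.0173 and 0.0098).

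Of 24 genes for cytokine signalling and liver transcription factors that act on complement genes, all of them tested, none was called with mesotrione 1 mM and 1 rose with isoxaflutole (IFNGR2, a log2 fold change of 0.30 with SE 0.073 and adjusted p = 0.0141). Over all features 1.15% were higher with isoxaflutole. With quizalofop-p-ethyl 9 fell (37.5%) and 4 rose (16.7%), against 19.7% and 13% of all features, so the share that rose is near that of all features. HNF4A went from 26.6 ± 2.11 to 6.89 ± 3.40 FPKM (a log2 fold change of -1.97 with SE 0.19 and adjusted p = 1.38e-11) and NR1H4 (the bile acid receptor) from 7.30 ± 2.11 to 1.40 ± 0.978 (a log2 fold change of -1.86 with SE 0.20 and adjusted p = 4.31e-10). Both are liver transcription factors. SOCS3, a feedback inhibitor induced by STAT3, went from 11.8 ± 4.14 to 3.94 ± 1.28 (a log2 fold change of -1.35 with SE 0.21 and adjusted p = 1.01e-06). NFKB2 went from 9.87 ± 2.56 to 23.3 ± 6.98 FPKM (a log2 fold change of 1.15 with SE 0.18 and adjusted p = 9.10e-07). IRF1 was higher too, at 24.7 ± 4.12 FPKM (a log2 fold change of 0.97 with SE 0.11 and adjusted p = 1.22e-09). RELA had a smaller rise of 0.47 (adjusted p = 0.0015).

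With mesotrione and isoxaflutole at 1 mM 4 of 19 hepatocyte markers fell with each compound (AHSG, CYP2C8, TFR2 and ARG1), against 0.701% and 1.26% of all features. The summed hepatocyte markers were at 13187 to 22702 FPKM with mesotrione and at 12141 to 20242 with isoxaflutole, against 21218 to 24488 in the control. The biliary sums were 511 to 634 and 567 to 678 against 720 to 805, with KRT19 the highest by named transcripts. KRT19 fell with mesotrione (-0.50 on the log2 scale, adjusted p = 0.0355) and had -0.43 with isoxaflutole (adjusted p = 0.0524). SPP1 fell with both compounds (-1.21, adjusted p = 1.03e-05, and -0.76, adjusted p = 0.00547), while SOX9 was above every control library with both (0.59, adjusted p = 0.276, and 0.77, adjusted p = 0.045). The stellate or mesenchymal sums, unnamed transcripts included, also lay below every control library, at 815 to 1071 and 864 to 999 against 1235 to 1334. COL3A1 fell by 2.40 and 2.07 on the log2 scale (adjusted p = 6.82e-14 and 1.33e-12), DCN by 1.62 and 1.86 (adjusted p = 6.58e-08 and 8.65e-10), and the other called gene was LUM with isoxaflutole (-0.999, adjusted p = 0.0332). FN1, the highest of this list by named transcripts, was not called with either compound (-0.22, adjusted p = 0.958, and -0.11, adjusted p = 0.972). Its named transcripts had means of 337 and 366 FPKM against 387 in the control, a part of these sums. The single-gene tests cover named transcripts only, while the sums also hold unnamed ones. They do not show which genes carry the fall of a sum. COL1A2, PDGFRA, VIM and TAGLN stayed under 1 FPKM in every library. The leukocyte sums were 10.9 to 23.6 and 14.6 to 38.7 against 12.3 to 38.7, with LYZ lower with mesotrione (-1.06, adjusted p = 0.0436), and the endothelial sums stayed under 2.5 FPKM in these 3 groups. Their part in the complement values was not tested.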

How the data were processed

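Total RNA of 50 libraries was sequenced as 75-base paired reads after removal of ribosomal RNA with a stranded kit, per the labels' protocols. HISAT, HISAT2, StringTie and the build GRCh38 stand, without versions, in the submitters' processing notes. The authors deposited FPKM for 239290 transcripts, of which 40117 carry no gene name. In 20 columns the deposited FPKM include other values, 24 in all, slightly below 0, which were set to 0, and 1 broken record was rejoined.

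FPKM of transcripts were summed by gene name and tested in limma 3.58.1 (R 4.3.3) on log2(FPKM + 1), with 1 mean per group, a trended robust prior and Benjamini-Hochberg adjustment over the 24248 features that reached 1 FPKM in 5 or more of the 49 libraries. Each group was compared with control, and the compounds pairwise at equal dose. Tables and figures were made with Python 3.11.15, pandas 2.3.3, numpy 2.4.6 and matplotlib 3.10.9. The fit was checked on simulated data. The number of fragments was estimated, so no counting intervals are given. Members and lists were chosen with earlier results of these data known. Genes past the threshold at 1 mM, or among the 5 with the largest change, were named, and up to 6 in each further list (other complement genes, acute phase genes, cytokine and hepatocyte regulators). Marker lists covered hepatocyte, biliary, stellate or mesenchymal, leukocyte and endothelial cells. Alternatives changed the pseudocount, filter, scaling, libraries, handling of transcripts and the replicate block. The left-out library enters only the fit of all 50 libraries.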

Additional observations from a re-analysis of the deposited data

Results flagged for a closer look

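A library was singled out where its gap to the nearest library of its group was large against the group's range. Chance meets this rule in about 1 in 20 groups if the values follow a normal distribution. The rule was applied to FPKM without a log scale, where that share need not hold. It was met in 15 of 100 combinations of a tested gene and a group (control and the 3 groups at 1 mM), and 6 of the 15 were the fifth control library, which has a sample number in the first run (9 to 18). There C1S stood at 440.3 FPKM (next highest 260.8), CFB at 1054 (587.5), C8B at 8.586 (4.337), C9 at 1.672 (0.1261), C4BPB at 19.98 (13.79) and CFHR2 at 19.07 (9.683). The first quizalofop-p-ethyl 1 mM library, of the same run, was the highest of its group for CFB at 201.2 FPKM (next 58.81), C6 at 2.778 (0.4431), C4BPA at 2.627 (0.3759) and CFHR3 at 0.03864 (0.007457).

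The other 5 were in other genes or runs. The fourth control library had 10.33 FPKM of named C8A where the other 4 were at 0. CD59 was lowest in the first control library at 66.47 FPKM (next 220.6) and in the first isoxaflutole 1 mM library at 70.42 (242.4), and highest in the third mesotrione 1 mM library at 232.5 (78.36). CFB was highest in the fourth mesotrione 1 mM library at 526.8 (434.4).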

How the results depend on the processing

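The count of lower complement genes with mesotrione 1 mM (2) became 0 in the fit of all 50 libraries and with only the 2 groups fitted, and 1 with a pseudocount of 0.1, without the filter, with median-ratio scaling, with the highest transcript per gene and without sample numbers 9 to 18. It became 5 with unnamed transcripts given to a gene where their locus has just 1 named gene and 6 with unnamed transcripts added by span, and ran from 0 to 2 with 1 replicate left out. With isoxaflutole 1 mM (5) it became 2 with all 50 libraries and with the highest transcript, 3 with the pseudocount of 0.1, without the filter and with median-ratio scaling, and 9 by span, and ran from 2 to 5 with 1 replicate left out. In these settings, left-out replicates aside, the share of all features called lower ran from 0.0988% to 1.63% with mesotrione. With isoxaflutole that share ran from 0.231% to 2.47%. With quizalofop-p-ethyl 1 mM the lower count (19) ran from 18 to 20 with 1 replicate left out. Against isoxaflutole (17) and mesotrione (17) it ran from 15 to 18 and from 16 to 17. With the highest transcript per gene more calls were lost. Against control C2 and C4B were then not called and CFHR3 was not tested. Against both other compounds C2, C8B and CFHR2 were not called. The same held for C4B and C5 against isoxaflutole and for C1S and C8G against mesotrione. The higher count with quizalofop-p-ethyl, against control, isoxaflutole and mesotrione alike (1), became 2 without the filter, where COLEC11 joined at 0.12, 0.11 and 0.12 (0.10 against 0.01 FPKM in the control), and 0 with the highest transcript. Median-ratio scaling moved the share of all features called with quizalofop-p-ethyl from 13% higher and 19.7% lower to 17.3% and 17.3%.

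Among the results recomputed in every setting, direction reversed for C2 with mesotrione (0.012 with the highest transcript) and C4A for quizalofop-p-ethyl against mesotrione (1.21 with the highest transcript). C8A, at 0 by name in 4 control libraries, reversed with mesotrione to -0.96 with unnamed transcripts added by either rule, -0.17 without sample numbers 9 to 18 and between -0.21 (without the second mesotrione library) and 0.95 with 1 replicate left out. With isoxaflutole it reversed to -1.40 with unnamed transcripts added. With quizalofop-p-ethyl it reversed to 0.24 with the pseudocount of 0.1 and lay between -0.58 and 0.30 (without the fourth control library) with 1 replicate left out. Genes not called with mesotrione or isoxaflutole also changed sign: with the highest transcript C4A went from 0.17 to -2.68 with mesotrione and from 0.10 to -0.67 with isoxaflutole, and CLU from 0.086 to -2.28 with isoxaflutole. C5 with mesotrione went from -0.032 to 0.29 with the highest transcript and 0.37 without sample numbers 9 to 18. The cause was not tested where none is named. Of single-gene results 1014 alternatives kept direction and side of the threshold, 58 fell short of it, 76 newly passed and 12 reversed. The span rule and the fit without sample numbers 9 to 18 were chosen after seeing the data.

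The runs of sample numbers were tried as a replicate block. Libraries of 1 run deviated together little (median correlation 0.0164, from -0.123 to 0.144, 13 of 216 pairs over 0.1), against a median of -0.00501 and 13 of 864 for libraries of different runs. The first run had a median of 0.0567, with 7 of 45 pairs over 0.1. Not every pair passed 0.1, so by this rule the runs are not taken to pair the samples in the main fit. The correlations were taken over all tested features, so they do not measure whether the complement genes alone shift by run. With the replicate block the lower counts were 8 with mesotrione, 7 with isoxaflutole and 19 with quizalofop-p-ethyl 1 mM. Over all features 1.09%, 1.73% and 20.3% were lower in that fit. C1R, C2, C6, C8B, C8G and C4BPB were added with mesotrione. With isoxaflutole C1R, C2 and C6 were added and C1RL (adjusted p = 0.0519) was not called. With the block and unnamed transcripts by span the counts were 10 with mesotrione and 11 with isoxaflutole, against 2.29% and 3.22% of all features. In that fit C8A had -0.96 with mesotrione and -1.40 with isoxaflutole. The depth limits genes near 1 FPKM, and the 9 complement genes under the filter were not tested.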

Other observations

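The quizalofop-p-ethyl 10 uM library that was left out (library 5) had low complement values. C3 stood at 127 FPKM, against 1079 to 1525 in the 4 libraries kept. CFB stood at 48.1 against 527.5 to 955, C1R at 9.71 against 186 to 298, C8B at 0.429 against 4.63 to 9.99 and CD55 at 1.51 against 9.26 to 11.4. Of the genes under the filter, CFD was higher in every mesotrione 1 mM library than in every control library, with means of 0.451 ± 0.125 and 0.211 ± 0.102 FPKM (SD, n = 5), without a test.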
